A study of Mus musculus with 4 samples.

Results

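Lag3, Tigit, Ctla4, Havcr2, Btla, Cd160 and Cd244 encode 7 inhibitory receptors of T cells other than PD-1, and Tox encodes a nuclear protein of the T cell exhaustion program. These 8 genes, of 27998 in the deposited tables, were chosen by symbol and followed in single blood T cells of tumor-bearing mice. All groups were C57BL/6 females, 6 to 8 weeks old at the start, that carried subcutaneous MC-38 colon carcinoma cells, and blood was drawn on day 18 after tumor challenge. The groups were mice left untreated, mice given a PD-L1-blocking antibody on days 10, 13 and 17 (anti-PD-L1), mice given an agonistic OX40 antibody with the TLR9 ligand CpG on day 7 (labelled OX40, here anti-OX40/CpG), and mice given both (PDOX). Each group is 1 library of T cells enriched from blood with magnetic beads, and the labels do not say how many mice a library holds. Treatments were therefore compared without a test: intervals for levels, shares and ratios are 95% intervals for counting error only, and a difference between treatments cannot be told apart from a difference between libraries or mice. The questions addressed were how much of each transcript circulating CD8, CD4 and Foxp3+ T cells held under each treatment, and whether the receptors lay in the same cells or in separate ones.

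Inhibitory receptors dampen signals from the T cell receptor or from costimulation. LAG-3 binds MHC class II and other ligands, CTLA-4 takes CD80 and CD86 from CD28, TIGIT competes with CD226 for the poliovirus receptor, BTLA and CD160 bind HVEM, TIM-3 (Havcr2) binds galectin-9 and other ligands, and 2B4 (Cd244) binds CD48. Many are induced by activation and stay high when antigen persists, and TOX is needed for the exhausted state that follows, whereas in blood these transcripts are usually sparse. The count of a unique molecular identifier (UMI), a tag that marks 1 captured transcript, was the unit throughout.

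The promoters of Havcr2 and Cd160, which shared cells with Lag3, of Ctla4, most frequent in Foxp3+ cells, and of Btla, most frequent in B cells, are shown for the sites of activation-induced factors near their starts. Each run is the 250 bases before a transcript start in RefSeq on GRCm38.p6, written 5′ to 3′ on the strand of the gene. Capitals mark the NFAT core GGAAA or the AP-1 motif TGANTCA on either strand, both sites of factors activated through the T cell receptor.
Havcr2, chr11:46454681-46454930, plus strand: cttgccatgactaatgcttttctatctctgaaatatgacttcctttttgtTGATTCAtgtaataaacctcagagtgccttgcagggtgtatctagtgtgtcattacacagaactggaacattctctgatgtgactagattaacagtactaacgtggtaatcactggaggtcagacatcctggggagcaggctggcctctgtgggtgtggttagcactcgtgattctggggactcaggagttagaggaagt
Cd160, chr3:96829352-96829601, minus strand: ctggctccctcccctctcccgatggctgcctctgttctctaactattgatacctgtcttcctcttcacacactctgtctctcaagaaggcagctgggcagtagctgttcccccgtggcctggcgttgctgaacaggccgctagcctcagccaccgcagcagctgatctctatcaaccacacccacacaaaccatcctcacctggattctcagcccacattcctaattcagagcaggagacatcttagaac
Ctla4, chr1:60908775-60909024, plus strand: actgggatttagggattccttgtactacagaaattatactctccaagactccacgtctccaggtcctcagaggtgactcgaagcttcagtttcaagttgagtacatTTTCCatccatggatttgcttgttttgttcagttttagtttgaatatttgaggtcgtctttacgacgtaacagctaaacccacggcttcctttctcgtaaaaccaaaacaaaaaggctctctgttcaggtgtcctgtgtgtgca
Btla, chr16:45224087-45224336, plus strand: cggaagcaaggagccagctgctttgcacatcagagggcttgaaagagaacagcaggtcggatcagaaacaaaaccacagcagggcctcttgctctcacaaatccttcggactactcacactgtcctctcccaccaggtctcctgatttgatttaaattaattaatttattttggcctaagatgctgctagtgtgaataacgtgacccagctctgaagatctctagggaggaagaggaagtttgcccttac
The Havcr2 window held 1 AP-1 motif and 0 NFAT cores, the Ctla4 window 1 NFAT core, and the Btla and Cd160 windows 0 of both. A second Cd160 start, with the window chr3:96814522-96814771, had 1 NFAT core. The Cd244 window held 1 of each motif and the Tigit window 2 NFAT cores. Of 32851 such mouse windows, 55.6% held an NFAT core and 6.75% an AP-1 motif. RefSeq windows were matched for 6 of the 8 genes, all except Lag3 and Tox. Lag3 lies on chromosome 6 at 124904359 to 124912434, with 16111 bases between it and Cd4, and Tox on chromosome 4 at 6686353 to 6991557.

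The tables held 862 to 1583 cells and 2392650 to 4969885 UMIs per library, and 5299 of 5434 cells had 200 or more genes. T cells were gated on Cd3 transcripts and split into Cd8+ cells (299 in the untreated library, 613 with anti-PD-L1, 659 with anti-OX40/CpG and 435 with PDOX, the order used for all values below), Cd4+ Foxp3- cells (93, 192, 253 and 281) and Foxp3+ cells (7, 8, 20 and 33). The lineage genes were fixed by the gates. Of the regulatory T cell markers that the gate did not use, Ikzf2 was found in 76.5% of Foxp3+ cells, Tnfrsf18 in 69.1%, Capg in 55.9%, Tnfrsf4 in 48.5% and Il2ra in 19.1%, and Cd4 in 42.6%. The summed level of 9 effector and memory markers in Cd8+ cells was 14.3, 26.2, 34.0 and 70.5 UMIs per 10000 of all genes, and that of 8 naive markers 26.5, 23.3, 20.4 and 14.9, so cell state moved with treatment, and its part in the levels below was not tested. In the same cells and unit, 6 monocyte markers summed to 1.64 in anti-OX40/CpG and to more in the others, 4 B cell markers to 0.129 to 0.334 and 4 proliferation markers to 0.278, 1.14, 0.652 and 1.53, while 4 erythroid markers summed to 31.6 in anti-OX40/CpG and to 0.554 to 3.44 elsewhere. Hemoglobin took 7.99% of UMIs in the untreated library and 0.344% to 1.70% elsewhere and was left out of all totals, as were mitochondrial and ribosomal genes. The libraries shared 16 cell barcodes in all.

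All 8 members were sparse, and Tox was the most often detected. In the 2006 Cd8+ cells, at least 1 UMI was found for Tox in 250 cells (12.5%), Cd160 in 142 (7.08%), Lag3 in 86 (4.29%), Btla in 65 (3.24%), Cd244 in 34 (1.69%), Ctla4 in 33 (1.65%), Havcr2 in 24 (1.20%) and Tigit in 9 (0.449%). In the 819 Cd4+ Foxp3- cells the order was Tox (14.4%), Btla (4.64%), Ctla4 (4.03%) and Lag3 (2.56%), with Cd160 in 7 cells (0.855%). B cells and myeloid cells of the same libraries gave the background: Lag3 was found in 1.5% of 133 B cells and 0.730% of 137 myeloid cells, Tox in 2.26% and 0.730%, Ctla4 in 0.752% and 0, and Cd160 in 0 of 133 B cells. Cd244 in Cd8+ cells lay close to its 1.5% of B cells. Median depth was 1649.5 UMIs in Cd8+ cells, 1215 in B cells and 1519 in myeloid cells. Tigit, at 1.5% of B cells and 1.46% of myeloid cells, did not exceed background in Cd8+ or Cd4+ Foxp3- cells and is read no further. Havcr2, at 6.57% of myeloid cells, Cd244, at 27.7% of myeloid and 34.5% of NK cells, and Btla, at 17.3% of B cells, were more frequent outside these T cells than in them.

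**Figure D1:**
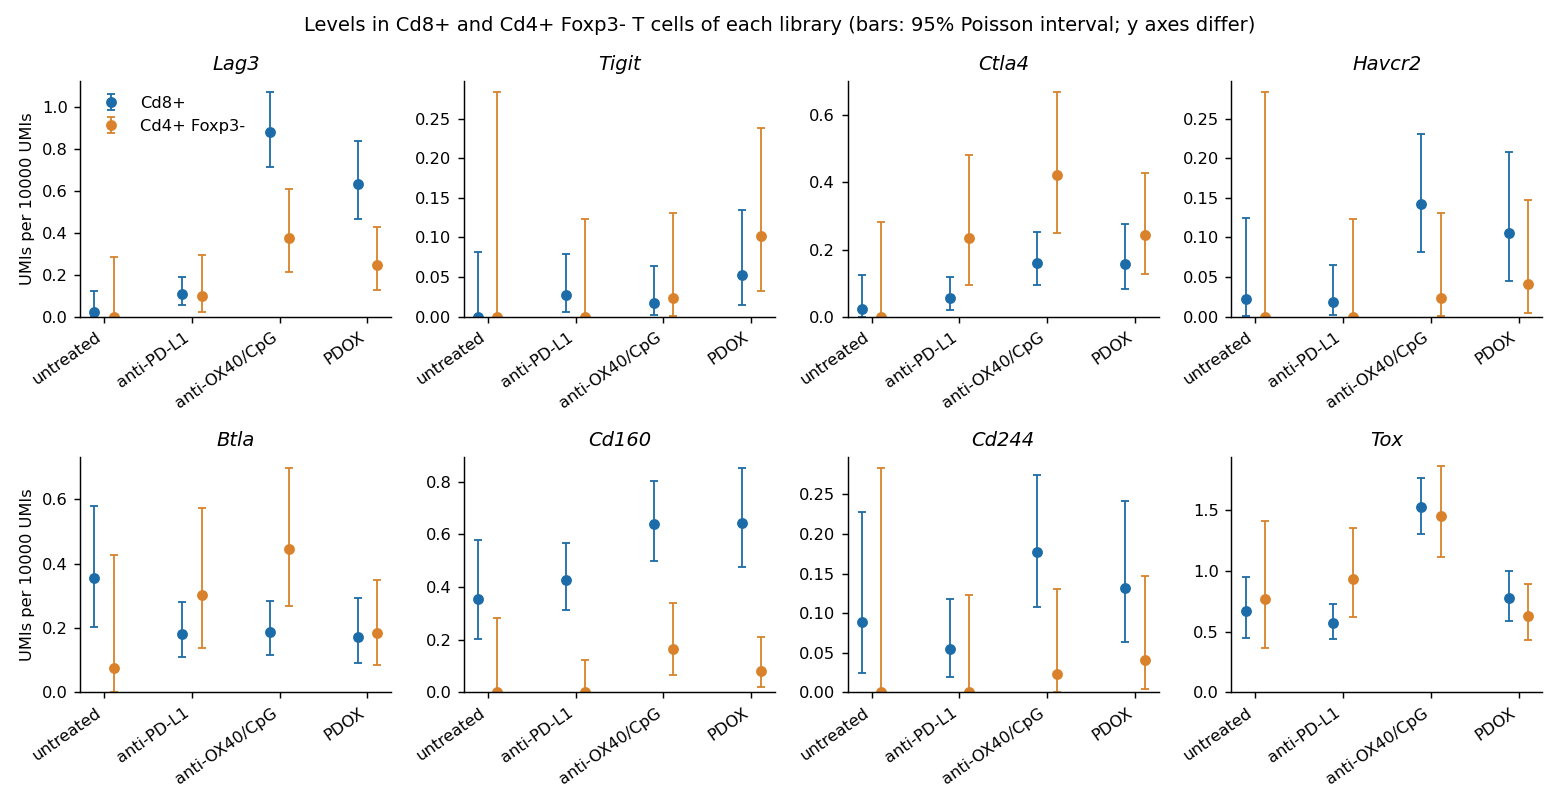
Level of each member in UMIs per 10000 UMIs by library, for Cd8+ (blue) and Cd4+ Foxp3- (orange) T cells, with a y axis of its own for each gene. Points are library sums and bars are 95% exact Poisson intervals for counting error. Lag3 in Cd8+ cells lies at 0.878 in the anti-OX40/CpG library and 0.632 in the PDOX library, against 0.0223 in the untreated one.

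Lag3 showed the widest range between libraries. In Cd8+ cells it had 1, 12, 99 and 48 UMIs, a level of 0.0223, 0.109, 0.878 and 0.632 per 10000. Both libraries with anti-OX40/CpG stood above the other 2, with intervals that did not overlap: 0.714 to 1.07 for anti-OX40/CpG and 0.466 to 0.837 for PDOX, against 0.0562 to 0.190 for anti-PD-L1. The ratio to the untreated library was 39.4 (6.91 to 1573) for anti-OX40/CpG and 28.4 (4.85 to 1143) for PDOX, resting on 1 untreated UMI, and PDOX was 0.719 (0.499 to 1.03) times anti-OX40/CpG. The share of cells with a UMI was 0.334%, 1.79%, 6.37% and 7.36%, and with every cell thinned to 750 UMIs 0.370%, 0.870%, 3.63% and 3.86%. The untreated and anti-PD-L1 shares lie near the 1.5% of B cells (2 of 133) and are not told apart from background. The anti-OX40/CpG library led in UMIs but not in cells: it had 2.36 UMIs per positive cell, up to 13 in 1 cell, against 1.5 in PDOX, and 14 of its cells held 3 or more UMIs against 5 in PDOX. The anti-PD-L1 value depends on the gate, since 18 further Lag3 UMIs of that library lay in T cells left out for B cell or myeloid UMIs, and with such cells kept its level was 0.206. In Cd4+ Foxp3- cells Lag3 had 0, 3, 16 and 12 UMIs, a level of 0.376 in anti-OX40/CpG. That was 1.63 times the untreated library set at a floor of 3 UMIs, and the interval from the counts themselves began at 1.18.

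Cd160 had a narrower range. Its Cd8+ level was 0.356, 0.426, 0.638 and 0.645 per 10000 (16, 47, 72 and 49 UMIs), and 1.79 times the untreated level (1.03 to 3.30) in anti-OX40/CpG and 1.81 times (1.01 to 3.41) in PDOX. Both lower bounds lie close to 1. Cd4+ Foxp3- cells held 0, 0, 7 and 4 UMIs and Foxp3+ cells none in 68 cells. A count of 0 allows 3 counts, or 4.41% of cells with a UMI, and sets no limit on cells that express the gene. In the NK gate Cd160 was found in 13.8% of 58 cells. The summed NK marker level in Cd8+ cells was 0.623, 3.61, 4.72 and 10.7 per 10000, and its part in the Cd160 values was not tested.

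Btla, an HVEM receptor like Cd160, was highest in the untreated library in Cd8+ cells, with 16, 20, 21 and 13 UMIs and a level of 0.356, 0.181, 0.186 and 0.171 per 10000. The intervals of all 4 libraries overlapped, and the ratio of PDOX to untreated was 0.480 (0.212 to 1.06). After thinning to 750 UMIs the levels were 0.346, 0.255, 0.176 and 0.274, with the untreated library still highest. In Cd4+ Foxp3- cells Btla was highest in the anti-OX40/CpG library, at 0.0768, 0.301, 0.446 and 0.183 (1, 9, 19 and 9 UMIs), and there PDOX was 0.411 (0.164 to 0.953) times anti-OX40/CpG.

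Ctla4 was a transcript of Foxp3+ cells first. It had 5, 4, 20 and 8 UMIs in them, a level of 4.05, 2.51, 3.89 and 1.36 per 10000, and was found in 3 of 7, 4 of 8, 10 of 20 and 5 of 33 cells. Over the libraries 22 of 68 Foxp3+ cells (32.4%, 21.5% to 44.8%) held it. In Cd8+ cells it had 1, 6, 18 and 12 UMIs (0.0223, 0.0544, 0.160 and 0.158 per 10000), 7.17 times the untreated level in anti-OX40/CpG (1.13 to 299) and 7.09 times in PDOX (1.05 to 303). In Cd4+ Foxp3- cells it had 0, 7, 18 and 12 UMIs. The anti-OX40/CpG level of 0.423 was 1.84 times the untreated floor, and the interval from the counts themselves began at 1.35. In both classes the level was higher in each treated library than in the untreated one.

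Havcr2 had 1, 2, 16 and 8 UMIs in Cd8+ cells and Cd244 had 4, 6, 20 and 10, and neither exceeded 3 UMIs in any Cd4+ Foxp3- library. Havcr2 also had 25 UMIs and Cd244 49 in 238 T cells left out for B cell or myeloid UMIs, which had a median of 2976 UMIs each. In the kept Cd8+ cells Havcr2 was lower in anti-PD-L1 (0.0181 per 10000) than in anti-OX40/CpG (0.142). Of its UMIs in the cells left out, 15 were in anti-PD-L1, 2 in anti-OX40/CpG and 7 in PDOX, and for Cd244 these were 25, 7 and 3. The order of the treated libraries may therefore depend on the gate and is not read.

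Tox was present in untreated T cells and was highest in the anti-OX40/CpG library in Cd8+ and Cd4+ Foxp3- cells. Its Cd8+ level was 0.668, 0.571, 1.53 and 0.776 per 10000 (30, 63, 172 and 59 UMIs), found in 9.36%, 9.14%, 18.1% and 10.8% of cells. The anti-OX40/CpG library alone stood out, at 2.28 times the untreated level (1.54 to 3.49), while PDOX was at 1.16 (0.737 to 1.87) and at 0.509 (0.372 to 0.688) times anti-OX40/CpG. Thinned cells kept the order of those 2, at 10.1% and 4.88% of cells. Cd4+ Foxp3- cells had a similar profile, with 0.768, 0.938, 1.46 and 0.632 per 10000. There anti-OX40/CpG was at 1.90 times the untreated level (0.966 to 4.15), an interval that reaches below 1. The PDOX level was 0.434 (0.272 to 0.678) times that of anti-OX40/CpG. In Foxp3+ cells Tox was found in 16 of 68 (23.5%), with 1, 1, 4 and 14 UMIs.

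Counting only members with 20 or more UMIs over the 2 libraries compared, 4 of 12 values in Cd8+ cells were past 2-fold against the untreated library: Lag3 and Tox higher in anti-OX40/CpG, Lag3 higher in PDOX and Btla lower in PDOX. Over all such genes, 4.16% were higher and 3.43% lower in anti-OX40/CpG, 5.21% and 6.65% in PDOX, and 3.85% and 2.62% in anti-PD-L1, where 0 of 3 members passed. Both Lag3 values rest on 1 untreated UMI, and the Btla ratio in PDOX had an interval of 0.212 to 1.06, which includes 1. In Cd4+ Foxp3- cells 1 of 4 values passed, Btla in anti-OX40/CpG, beside 7.59% of genes higher and 4.29% lower there, 4.65% and 2.96% in anti-PD-L1, and 10.1% and 6.26% in PDOX. The Btla ratio there rests on 1 untreated UMI, and no member passed once the 5% of cells with the most UMIs were left out. Between PDOX and anti-OX40/CpG, 0 of 7 members passed in Cd8+ cells, where 2.66% of genes were higher and 4.59% lower, and 2 of 4, Btla and Tox, were lower in Cd4+ Foxp3- cells beside 3.54% of genes, with 3.56% higher.

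The receptors were detected mostly in separate cells, yet together more often than independent detection would give. A receptor present in a cell can go undetected at this depth, so single detection does not show that the receptors lay in separate cells. Of 2006 Cd8+ cells, 1686 held none of the 7 receptors, 258 held 1, 52 held 2 and 10 held 3 or more. Cells with 2 or more numbered 2, 10, 34 and 16 by library, 62 in all, against 29.8 expected if the receptors were detected independently within each library, a ratio of 2.08 (1.59 to 2.66). The ratio was 1.37, 2.89, 2.32 and 1.56 by library, so each was above 1, with intervals that reached below 1 in the untreated library (0.166 to 4.95) and PDOX (0.891 to 2.53). Deeper cells show more genes: cells with 2 or more receptors had a median of 2388 UMIs and cells with none 1587.5. With the expectation formed within 3 equal bins of depth the ratio was 1.60, and 0.774, 2.24, 1.83 and 1.22 by library. The PDOX value rests on 16 cells against 13.1 expected. In cells thinned to 750 UMIs the ratio over all libraries was 3.18, on 22 cells against 6.93.

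**Figure D2:**
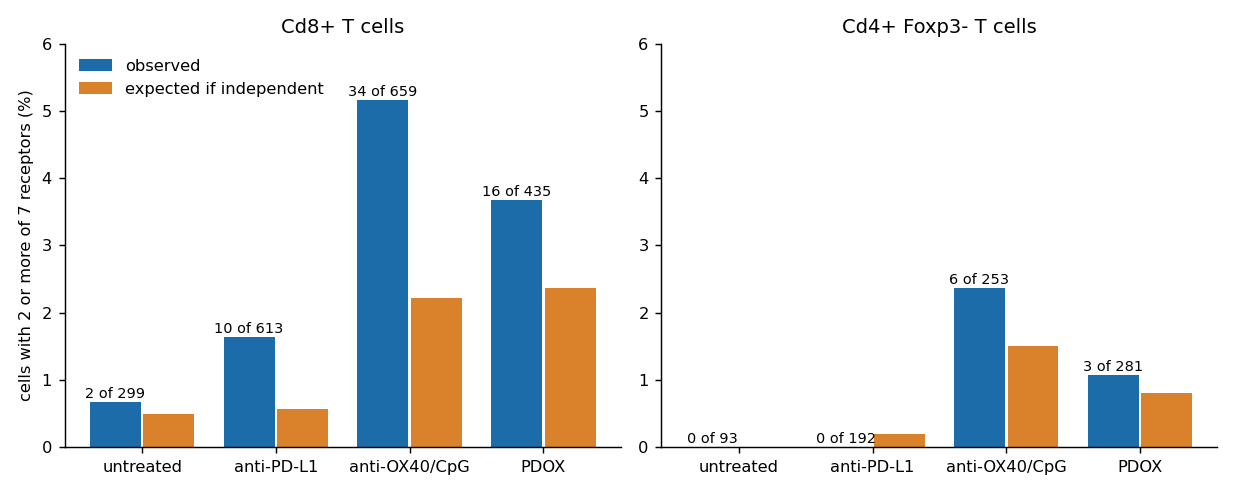
Share of Cd8+ and of Cd4+ Foxp3- cells with UMIs of 2 or more of the 7 receptors (%, y axis) in each library, observed (blue) and expected under independent detection (orange), with the cell numbers above the blue bars. In Cd8+ cells 2, 10, 34 and 16 cells were observed against 1.46, 3.47, 14.6 and 10.3 expected.

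Lag3 and Cd160 made up most of the overlap, being found in 40 and 39 of the 62 cells. The most frequent combination was Lag3 with Cd160 and nothing else, in 0, 3, 10 and 3 cells. Lag3 and Cd160 shared 21 cells against 6.96 expected (3.02, 1.87 to 4.61), and Lag3 and Havcr2 shared 12 against 1.45 (8.30, 4.29 to 14.5), which is 14.0% of Lag3+ cells and 50.0% of Havcr2+ cells. Cd160 and Cd244 shared 8 against 2.60 (3.08). The anti-OX40/CpG library held 15 of the 21 cells with Cd160 and 10 of the 12 with Havcr2, and without it the ratios were 1.74 (6 cells) and 3.61 (2 cells). With the expectation formed within Id2+ and Id2- cells, the ratio of Lag3 with Havcr2 was 4.63. Lag3 with Ctla4 gave 6 cells against 1.88 (3.20), 5 of them in PDOX. With the expectation formed within the 3 bins of depth the ratios were smaller. They were 2.14 for Lag3 with Cd160, 6.80 with Havcr2 and 2.20 with Ctla4, and 2.11 for Cd160 with Cd244.

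Btla was the only receptor found in 54 of its 65 Cd8+ cells, and with Ctla4, Havcr2 or Cd244 in 0 cells against 0.998, 0.745 and 1.10 expected, numbers too small to show avoidance. With Lag3 it shared 4 cells against 2.58 and with Cd160 7 against 4.50 (1.56, 0.626 to 3.21). Within bins of depth the ratios were 1.29 with Lag3 and 1.12 with Cd160. Another receptor was found in 16.9% of Btla+ cells, 27.5% of Cd160+, 39.4% of Ctla4+, 44.1% of Cd244+, 46.5% of Lag3+ and 66.7% of Havcr2+ cells, and these shares were not tested against each other. For each of these genes except Havcr2, no other receptor was detected in most positive cells. Cd4+ Foxp3- cells held 9 cells with 2 or more receptors against 6.41 (1.40, 0.642 to 2.66) and Foxp3+ cells 4 against 3.08 (1.30, 0.354 to 3.33), with Ctla4 in all 4. No excess over independent detection was shown at this depth in either class.

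**Figure D3:**
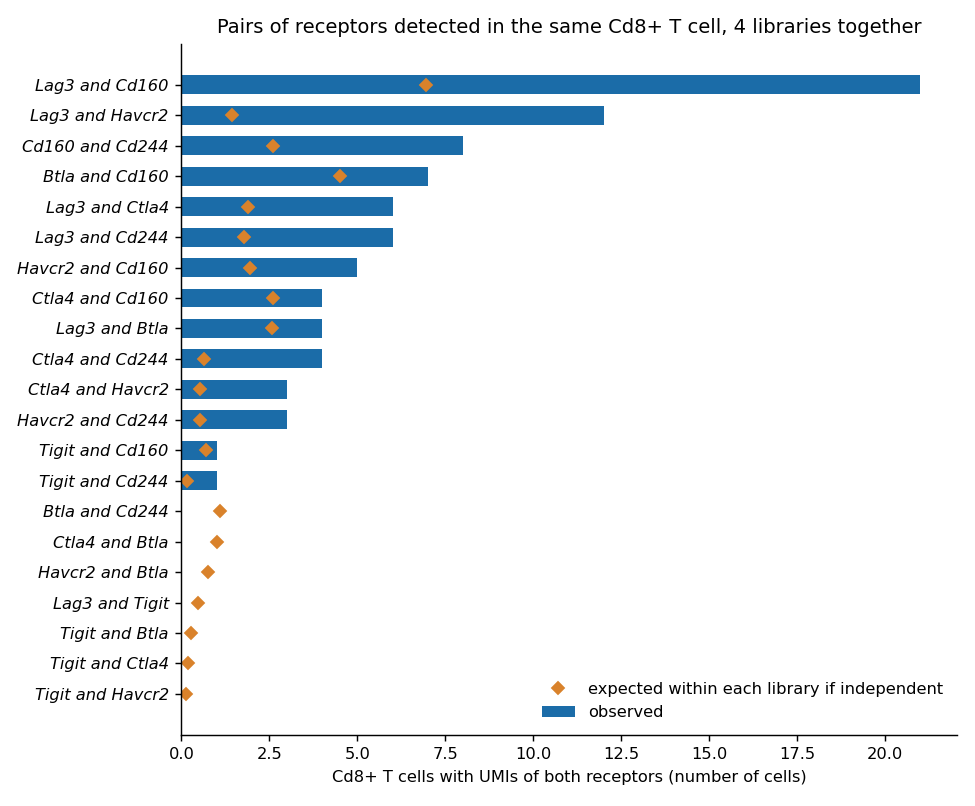
Number of Cd8+ cells with UMIs of both receptors, for the 21 pairs over the 4 libraries together; bars are observed cells and diamonds the number expected under independent detection within libraries. In number of cells, Lag3 with Cd160 (21 against 6.96) and Lag3 with Havcr2 (12 against 1.45) lie farthest above expectation. Btla shares 0 cells with Ctla4, Havcr2, Cd244 or Tigit.

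Tox was found in the same Cd8+ cells as Lag3 more often than independent detection would give. Lag3 and Tox shared 39 Cd8+ cells against 12.1 (3.21, 2.28 to 4.39), 30 of them in anti-OX40/CpG, and without that library 9 against 4.56 (1.98). Within bins of depth the ratio over all libraries was 2.74. Tox was found in 45.2% of Cd8+ cells with 2 or more receptors and in 10.3% of those with none, and Pdcd1, the PD-1 gene, in 43.5% and 1.19%. Pdcd1 was detected in 34.9% of Lag3+ cells and 1.56% of Lag3- cells, but in 4.62% of Btla+ and 2.94% of Btla- cells. All these shares pool libraries and depths. Of the 62 cells with 2 or more receptors 34 were in anti-OX40/CpG, and their median depth was 2388 UMIs against 1587.5 in cells with none. Lag3+ cells numbered 1, 11, 42 and 32 by library, Btla+ cells 15, 17, 21 and 12, and Pdcd1+ cells 0, 7, 32 and 21. With the expectation formed within libraries and bins of depth, Pdcd1 shared 30 cells with Lag3 against 5.20 (5.77). With Btla it shared 3 against 2.33 (1.29). The part of library and depth in the other shares was not tested. Cd160 with Tox gave 32 cells against 18.5 (1.73), 23 of them in anti-OX40/CpG, and 9 against 8.62 (1.04) elsewhere. Within bins of depth the ratio of Cd160 with Tox over all libraries was 1.39.

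The same cells were then compared across all genes with libraries as replicates. The splits reuse the UMIs counted above, and both splits of a pair show the same overlap, so they add no independent support for a pairing. UMIs were summed per library over cells with and without the splitting gene, and edgeR's quasi-likelihood test was run with library as a block. Such p-values measure the spread between these libraries, which differ in treatment, and every adjusted p below is from this test with Benjamini-Hochberg adjustment over all genes tested. In Lag3+ Cd8+ cells of the 3 treated libraries, Tox was at 1.22, 7.03 and 1.65 per 10000, against 0.551, 1.01 and 0.675 in Lag3- cells (log2 fold change 2.15, SE 0.29, adjusted p = 3.65e-08, higher in 3 of 3). Havcr2 had 0, 12 and 3 UMIs in Lag3+ cells and 2, 4 and 5 in the far larger number of Lag3- cells (3.75, SE 0.79, adjusted p = 0.00062, higher in 2 of 3). It passed the filter on low counts only through Lag3+ cells, the side where it was higher, so its call is not read as support. Cd160 was at 1.83, 2.69 and 0.508 against 0.383, 0.446 and 0.661 (1.75, SE 0.40, adjusted p = 0.0018, higher in 2 of 3). These 3 members were called beside 4.09% of all genes, and the other 4 did not pass the filter on low counts. Without the anti-OX40/CpG library none was: Tox was at 1.18 (adjusted p = 0.36) and Cd160 at 0.76 (adjusted p = 0.85), and Havcr2 had too few counts to be tested.

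In the reverse split, Lag3 was higher in Tox+ cells, at 0, 0.269, 2.73 and 0.884 per 10000 against 0.0250, 0.0907, 0.353 and 0.597 in Tox- cells (log2 fold change 2.11, SE 0.32, adjusted p = 5.96e-05, higher in 3 of 4). It was the 1 member called, beside 0.494% of genes. It was also the 1 called in Cd160+ cells (1.45, SE 0.33, adjusted p = 0.0054, higher in 3 of 4), beside 2.8% of genes. Neither call held without the anti-OX40/CpG library, where Lag3 was at 0.74 (adjusted p = 0.99) in Tox+ and 1.06 (adjusted p = 0.74) in Cd160+ cells, and DESeq2 gave an adjusted p = 1.0 for Lag3 in Tox+ cells. In Btla+ cells 0 of 3 tested members passed in edgeR, 0 at an unadjusted p under 0.05 and 0 in DESeq2, with Lag3 at 0.55, Cd160 at 0.47 and Tox at 0.06, beside 0.259% of genes called. In Tox+ Cd8+ cells Cd244 (1.56), Ctla4 (1.24), Cd160 (0.76) and Btla were tested and not called, nor was Lag3 in Tox+ Cd4+ Foxp3- cells (1.27, beside 0.165% of genes).

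**Figure D4:**
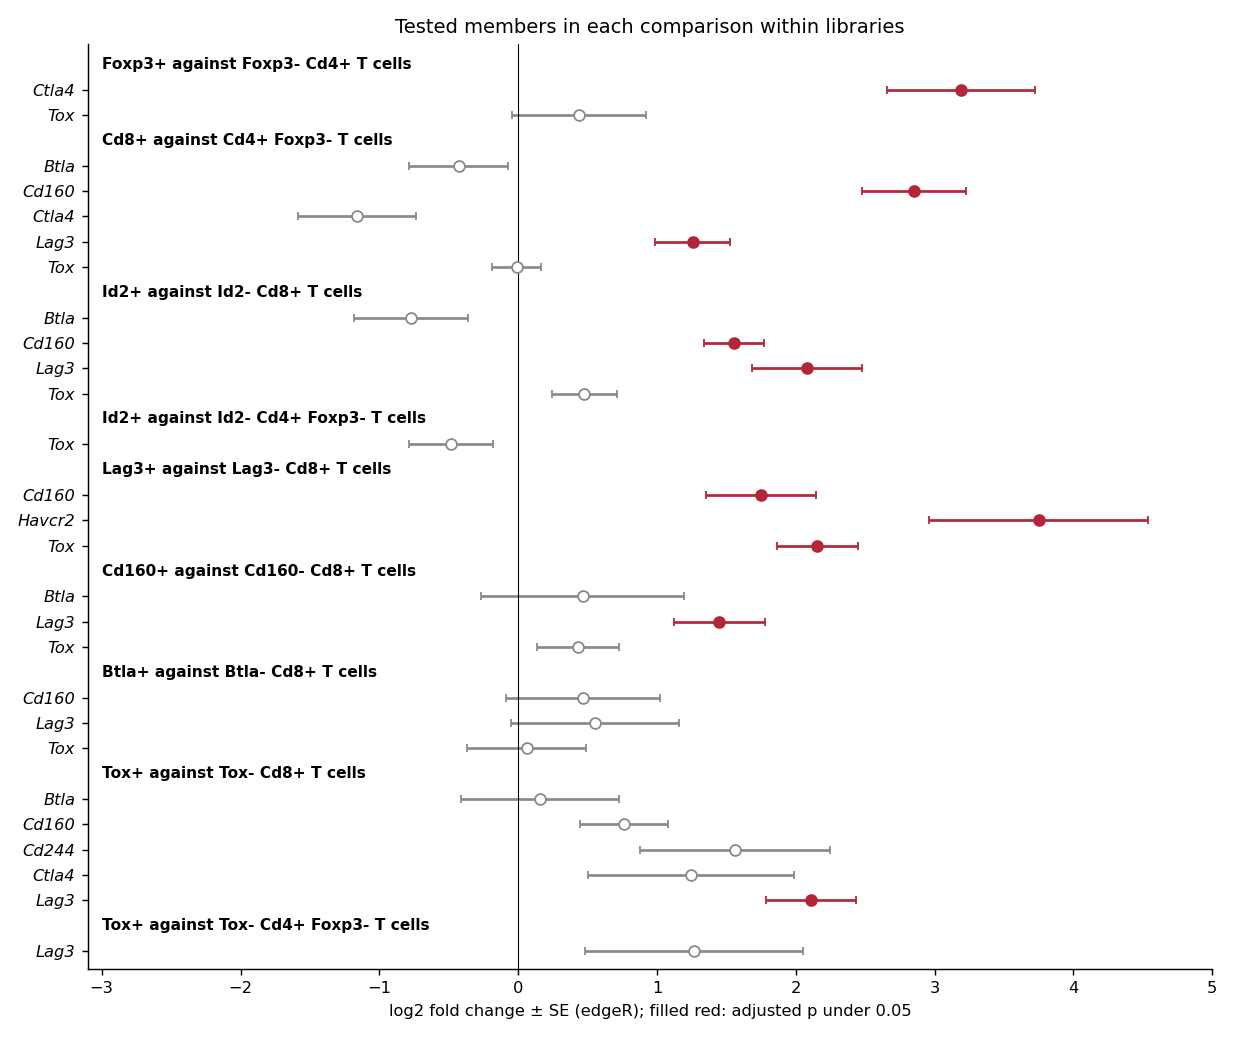
Log2 fold changes of the members in the within-library contrasts, with bars of 1 SE, for members that passed the filter on low counts. Filled red points were called by edgeR (adjusted p under 0.05), and the Foxp3 contrast used libraries with 5 or more Foxp3+ cells. Lag3 and Cd160 lie right of 0 in the Id2 and Cd8 against Cd4 contrasts, and Btla left of 0.

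Id2, a transcriptional regulator of effector lymphocytes, gave a second axis, with cells called Id2+ by the cutoff of the study. Id2+ cells were 22.7%, 27.6%, 32.9% and 49.7% of Cd8+ cells. Lag3 was at 0.0839, 0.247, 1.90 and 0.696 per 10000 in Id2+ cells and at 0, 0.0406, 0.231 and 0.547 in Id2- cells. It was higher in Id2+ cells (log2 fold change 2.08, SE 0.39, adjusted p = 0.0042, higher in 4 of 4 libraries), though without anti-OX40/CpG the change was 1.08 (adjusted p = 0.37). The untreated library counts there with 1 UMI against 0. Lag3 passed the filter on low counts only with the Id2+ sums, the side where it was higher. Without that filter it was still called, at 2.04 (adjusted p = 3.86e-10). Cd160 was at 0.839, 0.740, 1.01 and 0.905 in Id2+ cells against 0.182, 0.271, 0.405 and 0.304 (1.55, SE 0.21, adjusted p = 0.00029, higher in 4 of 4), a gap present in each library. It lost its call in cells thinned to 750 UMIs, at 0.86 (adjusted p = 0.42). These 2 of 4 tested members were called beside 5.97% of genes.

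**Figure D5:**
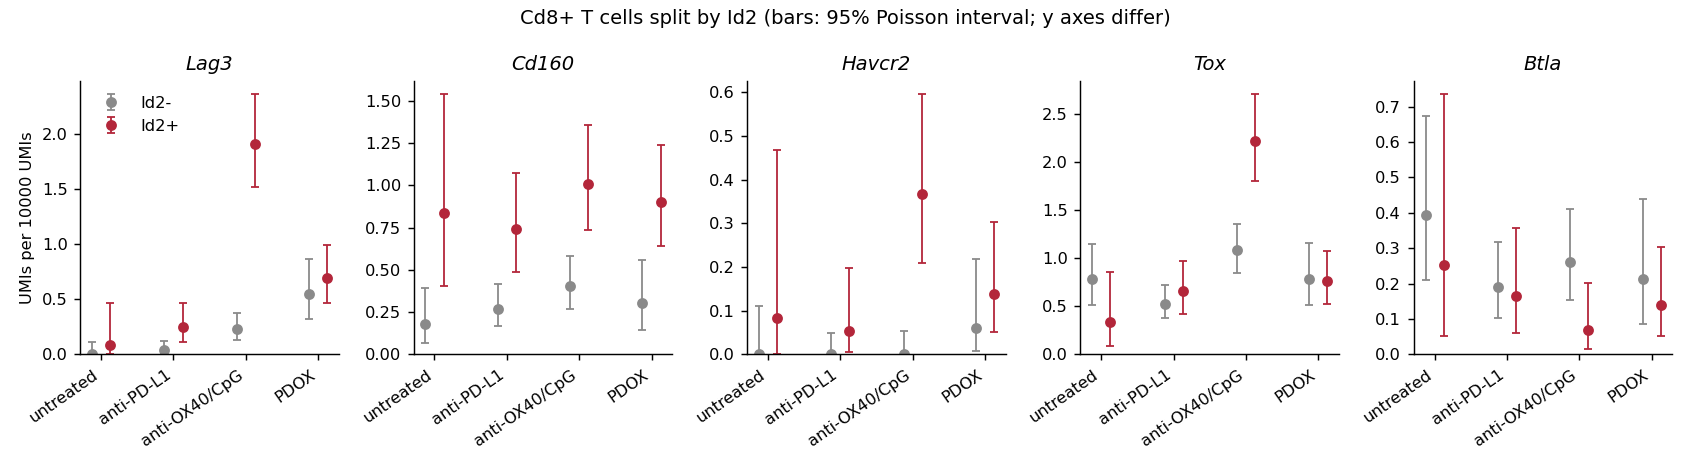
Levels of Lag3, Cd160, Havcr2, Tox and Btla in Id2+ (red) and Id2- (grey) Cd8+ cells by library, in UMIs per 10000, with 95% exact Poisson intervals. Lag3 and Cd160 are higher in Id2+ cells of each library, and Btla is lower in each.

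Btla was lower in Id2+ cells in each library, at 0.252, 0.164, 0.0689 and 0.139 against 0.394, 0.190, 0.260 and 0.213, but the change of -0.77 (SE 0.41, adjusted p = 0.34) was not called. Tox, at 0.336, 0.657, 2.23 and 0.765 against 0.788, 0.528, 1.08 and 0.791, was above its Id2- level in the anti-PD-L1 and anti-OX40/CpG libraries and below it in the other 2 (0.48, SE 0.23, adjusted p = 0.29). It was called under 1 of 14 alternatives, the lineage gate of the study, at 0.81 (adjusted p = 0.021), while the change was -0.058 without anti-OX40/CpG (adjusted p = 0.98). Havcr2 lay nearly wholly in Id2+ cells, with 1, 2, 16 and 6 UMIs there and 0, 0, 0 and 2 in Id2- cells, but was too sparse for the filter. Without the filter on low counts Havcr2 (3.70, adjusted p = 0.0011) and Cd244 (1.81, adjusted p = 0.025) were called as well. The excess of cells with 2 or more receptors was 1.79 when the expectation was formed within Id2+ and Id2- cells. In Cd4+ Foxp3- cells Tox was the 1 member tested against Id2, at -0.48 (adjusted p = 0.49), where 5.55% of genes were called. The Id2 effect on Tox differed between the lineages by 1.03 (SE 0.37, adjusted p = 0.53), and no member differed by this test, where 0.107% of genes did. At an unadjusted p under 0.05, 1 of the 4 tested members (Tox) would pass in edgeR, and 0 were called by DESeq2.

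Between lineages, Cd160 was higher in Cd8+ than in Cd4+ Foxp3- cells (log2 fold change 2.85, SE 0.37, adjusted p = 2e-05, higher in 4 of 4 libraries), as was Lag3 (1.26, SE 0.27, adjusted p = 0.0051, higher in 4 of 4). These 2 of 5 tested members passed beside 6.08% of all genes. For Lag3 the untreated library counts as higher with 1 UMI against 0. In the anti-PD-L1 library Lag3 was nearly level, at 0.1087 per 10000 in Cd8+ and 0.1005 in Cd4+ Foxp3- cells (12 and 3 UMIs). The gap lay mainly in anti-OX40/CpG (0.878 against 0.376) and PDOX (0.632 against 0.244). Cd160 passed the filter on low counts only through Cd8+ cells, and was still called without that filter, at 2.87 (adjusted p = 1.76e-13). Cd160 was called under all 14 alternatives, while Lag3 was called in 8 of 14 and lost the call without anti-OX40/CpG (1.19, adjusted p = 0.24), without PDOX (1.14, adjusted p = 0.056) and under DESeq2, its change staying between 0.99 and 1.49. Ctla4 was at -1.16 (SE 0.42, adjusted p = 0.13), Btla at -0.43 and Tox at -0.01, none called. Within the Cd4 side, Ctla4 was higher in Foxp3+ cells (3.19, SE 0.53, adjusted p = 0.00047, higher in 4 of 4), in a fit that admitted libraries with 5 or more Foxp3+ cells and called 3.15% of 2352 genes. That limit was set after the cell numbers were seen, since only 2 libraries had 10 or more. Ctla4 passed the filter on low counts only through Foxp3+ cells, the side where it was higher. Without that filter it was still called, at 2.86 (adjusted p = 1.12e-07). Tox was at 0.44 (SE 0.48, adjusted p = 0.80) in the filtered fit, and the other 6 members were too sparse for it.

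Lists of related genes were counted in the same fits, which called 4.09% of all genes in the Lag3 split, 5.97% in the Id2 split of Cd8+ cells and 6.08% between lineages. In the Lag3 split, 2 of 5 tested ligand genes were higher in Lag3+ Cd8+ cells, namely Cd48 (1.25), the ligand of 2B4, and Lgals3 (1.69), which encodes galectin-3. Among 11 tested transcription factors 3 were higher, Maf (3.58), Eomes (1.78) and Batf (1.29), and 1 lower, Tcf7 (-1.21), a factor of naive and stem-like T cells. Of 7 tested adaptors 1 was higher, Sh2d1a (1.36), which encodes SAP, the adaptor of 2B4 and related receptors. The list medians were 1.25, 1.29 and 0.19 on the log2 scale, against -0.08 for all genes tested. Sparse genes could pass the filter on low counts in this split only through Lag3+ cells, as Havcr2 did, which would raise such medians. The list genes were not checked for this. Without the anti-OX40/CpG library this split called 68 genes, against 239 with all 3 libraries. In the Id2 split of Cd8+ cells 3 of 5 ligand genes were higher, Cd48 (1.36), Lgals3 (3.10) and Fgl2 (2.87), with Sh2d1a (0.53) and Batf (0.79) higher and Tcf7 (-0.70) lower. In the Id2 split of Cd4+ Foxp3- cells, where 5.55% of genes were called, Cd48, Lgals3 (3.64) and Maf (1.60) were higher and Tcf7 (-0.69) and Bach2 lower. Between lineages, Cd226 (0.72) was higher in Cd8+ cells and Cd28 (-0.84), Icos (-0.78) and Cd2 (-0.31) lower, which are the 4 tested costimulatory partners, and of 9 transcription factors Eomes (2.59) was higher and Maf (-1.88) lower. Cd160+ cells had higher Cd48 (0.69) and Lgals3 (0.74) and lower Tcf7 (-0.54), beside 2.8% of genes called. Foxp3+ cells had higher Icos (1.31) and lower Tcf7 (-1.93), beside 3.15%. In Tox+ cells Sh2d1a (0.66) was higher in the Cd8+ class and Maf (1.52) in the Cd4+ Foxp3- class, beside 0.494% and 0.165%, and in Btla+ cells 0 genes of these lists were called, beside 0.259%.

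The genes whose log2 level followed each member most closely over the 12 library and class units were named by Pearson's r among 7685 genes. The units share libraries, depth and, for each class, cell type, so these values describe likeness of pattern only. For Lag3 they were Serpina3g (0.887), Sh2d1a (0.881) and Cdkn2c (0.857), and for Tox Snrpb2 (0.779), Gimap1 (0.757) and Mxd4 (0.728). For Ctla4 they were Prdx1 (0.967), Cldnd1 (0.957) and Sypl (0.954), for Cd160 Snai3 (0.988), Lcn4 (0.969) and 4833403J16Rik (0.963), and for Btla Ap2a1 (0.940), 1500015A07Rik (0.940) and Thumpd3 (0.933).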

How the data were processed

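Single-cell 3′ RNA libraries of blood T cells were analysed, 1 per group. The authors deposited gene by cell tables of raw UMI counts (mm10 and Seurat 2 per the labels, Cell Ranger per the methods of the study), and the tables hold 27998 genes and no normalized values. Cells with 200 or more genes were kept, with mitochondrial, ribosomal and hemoglobin genes left out. T cells had a Cd3 UMI, under 2 B cell UMIs (Cd79a, Cd79b, Ms4a1) and under 3 myeloid UMIs (Csf1r, Cst3, Lyz2), and were classed by any Cd8a, Cd8b1, Cd4 or Foxp3 UMI, with cells of both lineages left out. No doublet caller was run, and leaving out the 5% of cells with the most UMIs was an alternative. Levels are UMIs per 10000 with exact Poisson intervals, shares have Clopper-Pearson intervals, and ratios have exact conditional binomial intervals, all for counting error only. A library at 0 was set to a floor of 3 UMIs. Ratios were counted past 2-fold among genes with 20 or more UMIs. Expected co-detection multiplied the shares of the genes within each library. Counts summed per library and cell group (10 or more cells in each, 3 or more libraries) were tested in edgeR 4.0.16 (R 4.3.3) by its quasi-likelihood test with TMM, filterByExpr, a library block and Benjamini-Hochberg adjustment, called at an adjusted p under 0.05, with genes that define the cell groups left out. DESeq2 1.42.0, other normalization, filters, gates, no library block, thinning to 750 UMIs and leaving out each library were alternatives. Scripts were tested on simulated data. All 8 members, Pdcd1, the genes of fixed lists and the 3 genes most like each member with 50 or more UMIs were named. The members and lists were chosen with earlier results of these data known.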

Additional observations from a re-analysis of the deposited data

How the results depend on the processing

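Ctla4 in Foxp3+ cells was called under all 8 alternatives and Cd160 between lineages under all 14. With library as the block that pairs the 2 cell groups of each library, dropping the library block lowered the number of members called from 2 to 1 between lineages, from 2 to 1 for Id2, from 3 to 1 in the Lag3 split, and from 1 to 0 in the Cd160 and Tox splits. Thinning to 750 UMIs gave 1 member between lineages, 0 for Id2 and 0 in the Cd160 split, and raised the co-detection ratio to 3.18. DESeq2 called 1 member between lineages, 1 in the Lag3 split (with no adjusted p for Havcr2) and 0 in the Tox split, and for Id2 4 were called without a low-count filter. Without the 5% of cells with the most UMIs 1 was called between lineages. Leaving out 1 library at a time gave 1 to 2 members between lineages and for Id2, 0 to 3 in the Lag3 split and 0 to 1 in the Cd160 and Tox splits, and the cause was not tested. Of ratios past 2-fold, 4 in Cd8+ cells became 9 at 1.5-fold, 7 with no B cell or myeloid exclusion and 2 to 4 without 1 library. The 1 in Cd4+ Foxp3- cells became 2 at 1.5-fold, with the gate of the study or with no exclusion, 0 without the 5% of cells with the most UMIs, and 0 to 1 without 1 library. Changes of sign were seen for members that were called in neither fit. Leaving out 1 library at a time, Btla between lineages lay between -0.72 and 0.043 (above 0 without anti-OX40/CpG), Tox between lineages between -0.13 and 0.18 (0.0082 without the untreated library) and Tox for Id2 in Cd8+ cells between -0.058 and 0.67 (below 0 without anti-OX40/CpG). The lineage difference of the Id2 effect lay between -0.51 and 0.049 for Btla and between -0.021 and 1.63 for Lag3. In Tox+ cells Cd160 lay between -0.082 and 1.03, in Cd160+ cells Tox between -0.75 and 0.72, and in Btla+ cells Cd160 between -0.60 and 1.26 and Tox between -0.34 and 0.20. Tox between lineages was at 0.0065 with the gate of the study, 0.013 with no exclusion and 0.015 with no filter, and Tox in Btla+ cells at -0.41, -0.22 and -0.19. Btla in Tox+ cells was at -0.040 with no exclusion. Of 576 recomputed levels 527 moved by less than their interval. At a median of 1434.5 to 1618 UMIs per cell, a member absent from a cell's counts may have been present in the cell.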

Other observations

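Many T cells fell in no class. In 1502 T cells without a Cd4, Cd8a, Cd8b1 or Foxp3 UMI, of median depth 1317.5 UMIs, 8.22%, 8.15%, 12.5% and 11.5% held at least 1 of the 7 receptors, with the libraries in the order used above, and 13 cells held 2 or more. The 225 T cells with UMIs of both lineages held 34 Lag3 UMIs in 12 cells. In the 238 T cells left out for B cell or myeloid UMIs, Lag3 was found in 7.56%, Ctla4 in 7.14%, Havcr2 in 8.40%, Cd244 in 13.4% and Tox in 11.3%, and whether these are doublets was not tested.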
